A study of Mus musculus with 7 samples.

Results

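Adrenal RNA from 2-week-old male mice was compared with adrenal RNA from 2-week-old female mice, before puberty. The comparison rests on 2 of the 7 libraries of the study, 1 per sex, and each of the 2 was made from 6 pooled glands. All 7 libraries came from adrenal glands of C57BL/6J, an inbred laboratory strain, and no allele or agent is named for any of them. The labels call the pair P2 weeks male and P2 weeks female. The other 5 pools were E18.5 embryos of undetermined sex (40 glands), P1 males (16) and females (22), and 12-week males and females (4 each). Genes were eligible when their mean over the 7 libraries was at least 10 normalized counts, which 16720 of 35976 gene symbols reached. The 569 of these on the X or Y chromosome and the 361 with no chromosome match were left out, so 15790 genes were compared. With 1 pool per sex nothing measures the spread between animals or pools, and sex and pool cannot be told apart. All values are therefore descriptions of these libraries, with no test between the sexes.

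The adrenal gland joins a cortex that makes steroid hormones to a medulla whose chromaffin cells make catecholamines. The outer cortex makes aldosterone and the middle cortex makes glucocorticoid from cholesterol. In mice the innermost cortex of young animals is the X-zone, a layer of fetal origin known for the enzyme Akr1c18, which inactivates progesterone, and it is lost in males around puberty and kept longer in females. Muscle, liver and bone marrow cells are not parts of the gland, although blood and the fat around the gland can enter a dissected sample.

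The promoters of 6 genes are shown because their genes carry the main groups described here: an X-zone enzyme gene, 3 muscle genes and 2 red cell genes. Each sequence holds the 150 bases before a RefSeq transcript start, read along the gene's strand (GRCm38.p6). Capitals mark a match to the E-box letters CAGCTG, which muscle regulators of the Myod1 family bind, to the letters AGATAA, which GATA factors bind, or to the TATA box letters TATAAA. In the Myh4 window, which holds 2 of the motifs, they do not overlap. Akr1c18 lies at chr13:4150647-4150796 on the minus strand, Myh4 at chr11:67237662-67237811 on the plus strand, and Atp2a1 at chr7:126463074-126463223 on the minus strand. Myoz2 lies at chr3:123034988-123035137 on the minus strand, Kel at chr6:41704326-41704475 on the minus strand, and Rhd at chr4:134864386-134864535 on the plus strand.
Akr1c18: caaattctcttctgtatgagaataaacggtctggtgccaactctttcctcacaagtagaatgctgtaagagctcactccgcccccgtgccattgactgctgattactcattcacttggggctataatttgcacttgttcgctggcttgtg
Myh4: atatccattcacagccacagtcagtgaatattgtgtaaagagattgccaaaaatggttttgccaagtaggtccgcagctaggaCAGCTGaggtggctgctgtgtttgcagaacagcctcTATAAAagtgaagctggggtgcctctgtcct
Atp2a1: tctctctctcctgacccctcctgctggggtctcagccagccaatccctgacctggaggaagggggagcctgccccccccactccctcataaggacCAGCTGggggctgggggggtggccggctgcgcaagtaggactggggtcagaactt
Myoz2: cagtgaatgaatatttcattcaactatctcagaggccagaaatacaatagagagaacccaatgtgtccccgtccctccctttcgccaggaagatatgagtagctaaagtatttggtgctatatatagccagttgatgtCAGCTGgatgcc
Kel: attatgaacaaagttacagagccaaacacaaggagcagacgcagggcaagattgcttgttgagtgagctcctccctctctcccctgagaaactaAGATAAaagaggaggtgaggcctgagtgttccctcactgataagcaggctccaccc
Rhd: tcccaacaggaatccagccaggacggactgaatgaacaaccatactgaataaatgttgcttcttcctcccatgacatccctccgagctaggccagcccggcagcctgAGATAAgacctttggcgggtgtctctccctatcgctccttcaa

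The muscle and red cell windows printed were chosen because they hold a match, so they do not stand for every member. Both strands of the 300-base windows (250 before and 50 after the start) were searched for the members found in the RefSeq table, 35 of 45 muscle genes and 17 of 23 erythroid genes. The E-box letters were present in 20 of 42 promoters of the skeletal muscle lists (47.6%), against 16.3% of all 32851 promoters. The AGATAA letters were present in 7 of 19 promoters of the erythroid list (36.8%), against 11.2% of all promoters. Other pairs of motif and list were searched too, with the steroidogenesis and liver lists and the SF-1 letters CAAGGTCA. The TATA box letters were in 21.1% of erythroid, 19% of muscle and 23.5% of liver promoters, against 13.6% of all. Of 8 steroidogenesis promoters, 0 held the TATA box letters and 0 the SF-1 letters, which 1.56% of all promoters held. The Akr1c18 window held none of the motifs. A match describes letters and not a bound site, and no match says only that the letters are not in the window.

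The 2-week libraries held 21050036 reads in genes for the male and 22176281 for the female, within the range of 15184210 to 23551289 over the 7 libraries. Values are normalized counts, the authors' read counts divided by a size factor, and 1 read was worth 0.890 in the male and 0.882 in the female library. Xist, the RNA of the silenced X chromosome, stood at 3.56 in the male and 13671 in the female library, and 4 Y-linked genes summed to 8373 and 4.41, so both libraries fit their labels. The P1 female library held Y-linked RNA (1153 reads over the same 4 genes), so P1 differences between the sexes carry that limit. Ratios below are female over male unless said otherwise, each with an exact 95% interval on the reads. Such intervals cover counting error only, because reads that carry no molecular identifier can be copies of 1 molecule, and they say nothing about the spread between pools.

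Most genes stood at nearly the same level in both pools. The median log2 difference, male minus female on log2(normalized count + 1), was -0.01, and 72.5% of genes lay within 1.2-fold. A difference of at least 2-fold was found in 660 genes (4.18%), of which 77 (0.488%) were higher in the male and 583 (3.69%) higher in the female library. At P1 the same limit was passed by 1041 genes (6.59%), with the male higher in 565 (3.58%) and the female in 476 (3.01%). At 12 weeks it was passed by 1369 (8.67%), with the male higher in 747 (4.73%) and the female in 622 (3.94%). The 2-week pair thus had the fewest such genes and the most one-sided split. The transferrin gene Trf lay just inside the 2-fold limit, with 4030 in the male and 8157 in the female library. Serpina6, which encodes a corticosteroid carrier of the blood, lay just outside it with 65.8 and 132.3, since 1 is added to both values before the log. Without that addition its ratio was 2.01. At the expression limit, 6820408C15Rik was just inside with 9.79 and 13.2, and Olfr329-ps was just outside with 0.89 and 1.76.

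Genes at least 2-fold higher in the male pool were all of low level. Among 11534 genes with at least 100 normalized counts in a 2-week library, 145 (1.26%) passed the 2-fold limit on the female side and 0 (0.0%) on the male side. The highest male value of any gene at least 2-fold higher in the male was 85.4, in Fbxo36, a ubiquitin ligase adaptor gene with 41.5 in the female library. Beyond counting error, by an exact binomial test on the reads of these libraries with Benjamini-Hochberg adjustment, 3776 genes (23.9%) differed, 1727 higher in the male (10.9%) and 2049 in the female (13%). Of these, 420 (2.66%) also passed 2-fold, with the male higher in 15 (0.095%) and the female in 405 (2.56%). The test calls smaller differences in genes with more reads, so lists of abundant genes can exceed these shares at small steps. Scaled to equal totals, the calls beyond counting error were 3018 higher in the male and 1425 in the female, so the direction of small differences depends on the scaling.

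**Figure D1:**
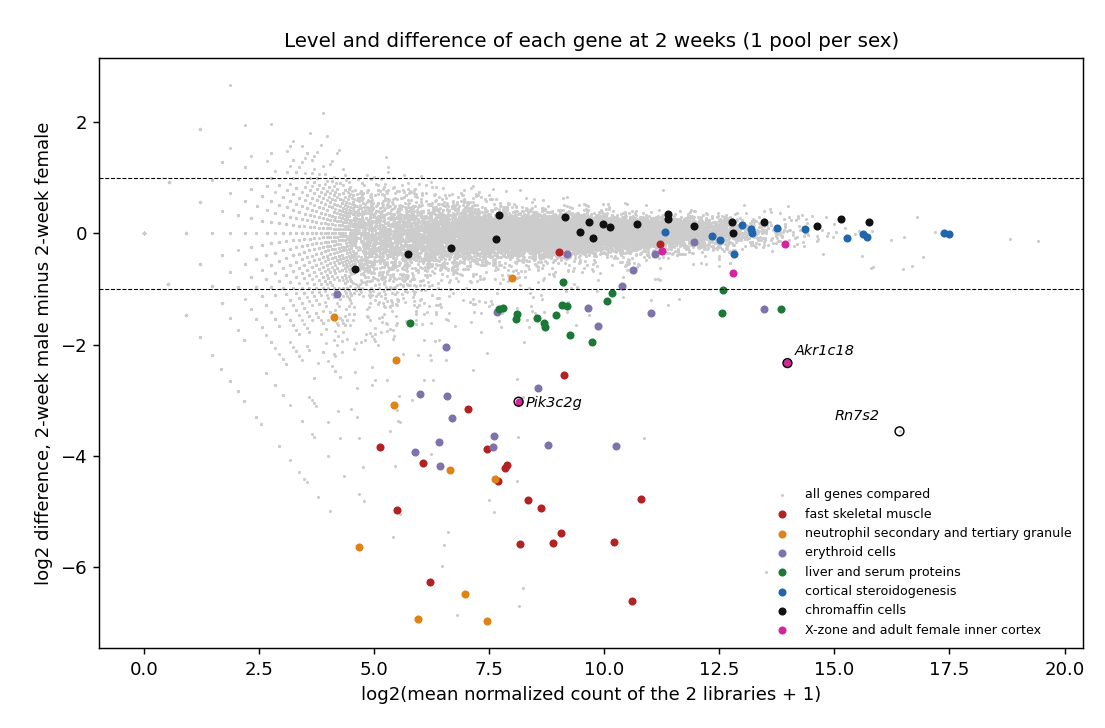
Log2 difference (male minus female) of each of the 15790 genes compared at 2 weeks, against the log2 mean level of the 2 libraries, with members of 7 gene lists coloured, 3 genes circled and dashed lines at 2-fold. Most coloured muscle, neutrophil, red cell and liver genes lie below the lower line, steroid and chromaffin genes lie near 0, and at high levels the upper part of the plot is empty.

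**Figure D2:**
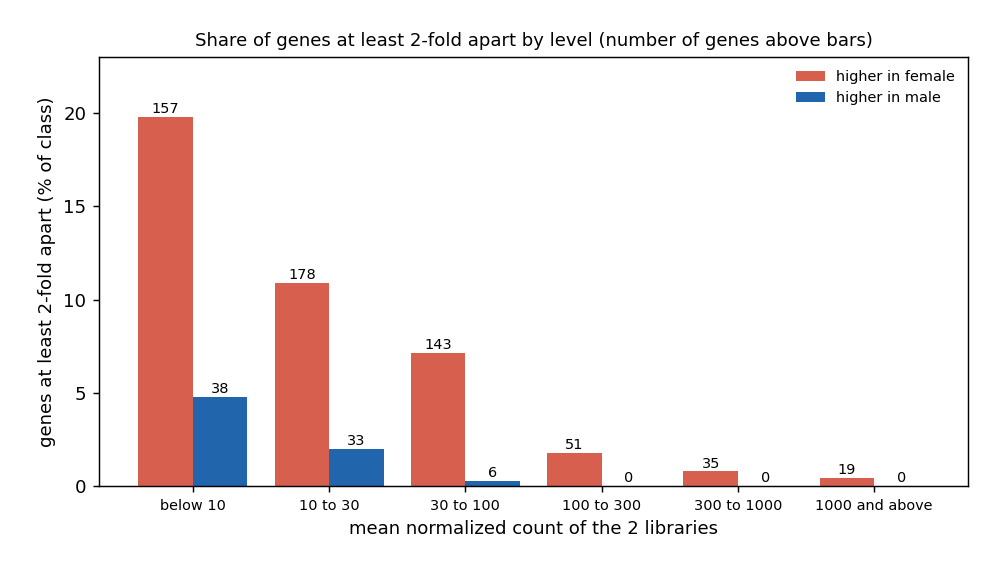
Percentage of genes at least 2-fold apart at 2 weeks in 6 classes of mean normalized count, with red bars for genes higher in the female and blue bars for genes higher in the male library, and gene numbers above the bars. From 100 upward the male bars are at 0 while the female bars stand for 51, 35 and 19 genes.

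Genes of the steroid-making machinery of the cortex stood at close levels in both pools. Of 14 listed genes 0 were 2-fold apart, 7 were higher in each sex, and their median difference was -0.001, or 0.06 when scaled to equal totals. Star, which carries cholesterol into mitochondria, had 169893 in the male and 169135 in the female library, a ratio of 0.996 (0.989 to 1). Hsd3b1, which makes progesterone from pregnenolone, had 182650 and 183870. Cyp11b1, which makes corticosterone, had 49939 and 50262. None of these 3 differed beyond counting error. Of the 14 genes, 4 were higher in the male and 4 higher in the female library beyond counting error, against 10.9% and 13% of all genes compared. The member farthest from 0 was Mrap, the accessory protein of the ACTH receptor, with 6312 and 8148, a log2 difference of -0.37. Mc2r, the ACTH receptor itself, had 5112 and 5271.

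Genes of the zona glomerulosa, the outer aldosterone-making layer, leaned slightly to the male pool. Of 11 listed genes 10 were compared, 9 of them were higher in the male, 5 beyond counting error, and the median difference was 0.13. Over all genes compared, the shares were 48.7% higher in the male and 10.9% beyond counting error on that side. Cyp11b2, the aldosterone synthase, had 4025 in the male and 3176 in the female library, a male over female ratio of 1.27 (1.21 to 1.32). Cacna1h, a calcium channel of these cells, had 2052 and 1593, a log2 difference of 0.36. The exception was Vsnl1, a calcium sensor gene, with 794 and 861. None of the members compared reached 2-fold. In bulk tissue, more cells of a type and more RNA per cell cannot be told apart, and this holds for every group below.

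X-zone genes were higher in the female pool. Akr1c18 stood at 283 at E18.5, at 811 and 827 in male and female at P1, at 5346 and 26949 at 2 weeks, and at 2.80 and 774 at 12 weeks. Both 2-week pools were thus above every other library, and the female pool was the higher of them, by 5.04-fold (4.90 to 5.18). The 12-week male value lay under the 3-read floor of 4.19. Akr1c18 spans 4132615 to 4150646 on chromosome 13.

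Pik3c2g, a lipid kinase gene known from the X-zone, had 60.5 in the male and 500.2 in the female library at 2 weeks, 8.27-fold more (6.42 to 10.8). It had 41.2 at E18.5, 32.7 and 28.7 at P1, and 0 and 28.3 at 12 weeks. The female 2-week library was the highest of the 7 for this gene too, and the male 2-week value was also above those at E18.5 and P1. The other 3 genes of the list were chosen from the adult female inner cortex and were closer together. Akr1d1, a steroid reductase gene, had 5393 and 8807 at 2 weeks, Cyp2f2, a cytochrome P450 gene, 14366 and 16540, and Thrb, a thyroid hormone receptor, 2171 and 2699. All 5 were higher in the female pool beyond counting error, 2 of them at least 2-fold, with a median of -0.71. The shares over all genes compared were 13% and 3.69%. Muscle, neutrophil, red cell and liver genes, described further on, were also higher in the female pool, and their part in these values was not tested.

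Akr1c18 belongs to a family of aldo-keto reductases whose genes resemble each other closely, so reads may have been split between them. The other family members were looked up after the values of Akr1c18 were seen. Akr1c6 had 35.6 in the male and 98.8 in the female library, a ratio of 2.78 (1.92 to 4.09), and Akr1c20 had 8.01 and 37.1, a ratio of 4.63 (2.22 to 10.8). Akr1c14, which reduces steroid hormones, had 49.8 and 92.6. Akr1c13 (648 and 775) and Akr1cl (11502 and 14266) were within 1.3-fold. Akr1c12 and Akr1c19 had at most 29 reads in either library and did not differ beyond counting error.

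Of 7 genes far apart between adult males and females, 5 were within 2-fold at 2 weeks. They were chosen on the 12-week libraries of this study, so their adult values are no independent evidence. Frzb, a secreted Wnt antagonist, had 3903 in the male and 3748 in the female library at 2 weeks, and 74.1 and 8345 at 12 weeks. Srd5a2, a steroid reductase that makes dihydrotestosterone, had 477 and 508 at 2 weeks, and 34433 and 1471 at 12 weeks. Susd3, a cell surface protein gene, had 66.7 and 37.9 at 2 weeks, and 984 and 27.2 at 12 weeks. The members at least 2-fold apart at 2 weeks were Akr1c18 and Ugt1a1, a glucuronyl transferase gene with 26.7 and 58.2.

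Among receptors for circulating hormones, 0 of 11 compared genes were 2-fold apart and the median was 0.05. Prlr, the prolactin receptor, had 12555 in the male and 11353 in the female library, and Esr1, an estrogen receptor, had 728 and 749. Nr3c2, the mineralocorticoid receptor, was the farthest apart, with 414 and 322. Signals of the capsule and of cortical progenitors were also close, with a median of -0.08 over 14 genes. Shh, the hedgehog signal of progenitors, had 748 and 744, and Dlk1, an imprinted Notch ligand gene, had 1600 and 1704. Tcf21, a transcription factor of capsule stroma, stood apart from that list with 68.5 and 127.0, a ratio of 1.85 (1.40 to 2.48).

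Cholesterol synthesis genes leaned to the female pool, each by a small step. Of 18 genes 16 were higher in the female library, 10 beyond counting error and 0 by 2-fold, with a median of -0.21, or -0.14 when scaled to equal totals. Among all genes compared, 51% were higher in the female, and 13% were so beyond counting error. Fdps, which joins isoprene units, had 1225 in the male and 1678 in the female library, the farthest from 0 at -0.45. Cyp51, which removes a methyl group from lanosterol, had 1443 and 1861, a log2 difference of -0.37. Hmgcs1, which makes HMG-CoA, had 7291 and 8880.

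Genes of the medulla leaned slightly to the male pool. Of 21 chromaffin genes 16 were higher in the male library, 12 of them beyond counting error, and 0 of the 5 higher in the female passed that limit. Over all genes compared, 48.7% were higher in the male, and 10.9% were so beyond counting error. Th, the rate-limiting enzyme of catecholamine synthesis, had 7507 in the male and 6511 in the female library. Pnmt, which makes adrenaline, had 4123 and 3758. Chga, a granule protein, had 39218 and 32704, a male over female ratio of 1.2 (1.18 to 1.22). The median of the list was 0.16, and none of the 21 reached 2-fold.

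Neuronal genes leaned the same way and somewhat further. Of 10 genes of the neuronal cytoskeleton and synapse 9 were higher in the male library, 7 beyond counting error, with a median of 0.23. The shares over all genes compared were 48.7% and 10.9%. Nefl, a neurofilament gene, had 667 in the male and 431 in the female library, and Gap43, a growth cone protein, had 487 and 323. Of 10 endothelial genes 9 were higher in the male, with a median of 0.17. Kdr, a VEGF receptor, had 5677 and 4718. Schwann cell genes leaned the other way with a median of -0.34 over 13 genes, but were mixed. In the female library 9 were higher, 4 of them beyond counting error, against 51% and 13% of all genes compared. In the male library 4 were higher, 1 of them beyond counting error (Fabp7, with 144 and 104). Mbp, a myelin protein, had 376 and 497, while Sox10, the transcription factor of this lineage, had 106 and 97.9.

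The 15 genes farthest on the male side, among those with at least 100 normalized counts, lay between 0.69 and 0.84 on the log2 scale, so none reached 2-fold. None belongs to a list, and several are known from neurons. Nefh, the heavy neurofilament chain, had 244 in the male and 139 in the female library, a male over female ratio of 1.75 (1.43 to 2.14). Htr3b, a serotonin receptor subunit, had 174 and 98.8. Avil, an actin regulator of sensory neurons, had 290 and 170. The same group held Hpca, a neuronal calcium sensor, Syt5, a synaptic vesicle protein, Myt1l, a neuronal transcription factor, and the potassium channel gene Kcnk10. The most abundant of the 15 was Chchd10, a mitochondrial protein gene, with 3132 and 1834, a male over female ratio of 1.71 (1.62 to 1.8). The others were Gm42259, Gdap1l1, Tmem63c, Ifi30, Zfp804a, Pcdhgb4 and 4632427E13Rik.

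**Figure D3:**
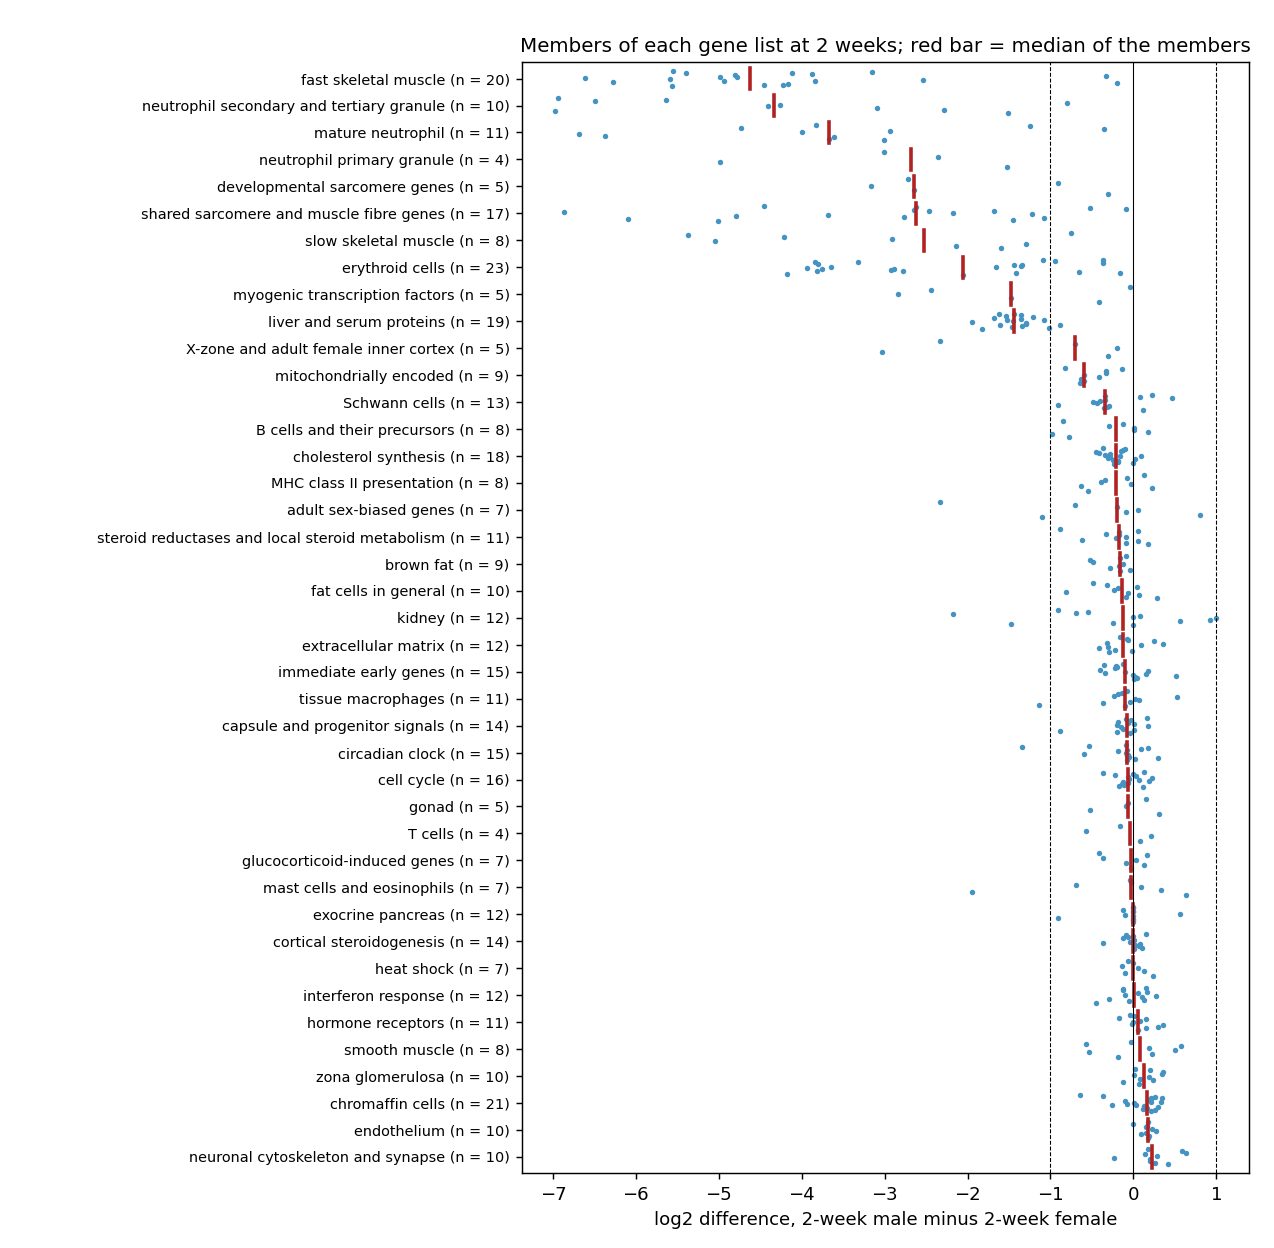
Log2 difference (male minus female at 2 weeks) of every compared member of 41 gene lists, 1 point per gene, with the median of each list as a red bar and dashed lines at 2-fold. The medians of the skeletal muscle, neutrophil, erythroid and liver lists lie left of the lower line. The X-zone and adult female inner cortex median (-0.71) lies between that line and 0. Those of the other cortex lists, the medulla, vessels, fat, smooth muscle and stroma lie around 0.

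Skeletal muscle genes were far higher in the female pool. Of 20 genes of fast muscle fibres, all 20 were higher in the female library beyond counting error and 18 were at least 2-fold higher, against 13% and 3.69% of all genes. These 2 shares also stand beside the counts of the other muscle, neutrophil, red cell and liver lists below. Their median was -4.62, or -3.80 with a pseudocount of 10. Their summed level was 3248 in the male and 19072 in the female library. Before and after this age the same sum was 30857 at E18.5, 61957 and 110907 in male and female at P1, and 2389 and 2182 at 12 weeks. Most of the male 2-week sum and of the adult sums came from Pygm and Eno3. Without them, a choice made after seeing the data, the other 18 genes summed to 588.0 in the male and 15967 in the female library at 2 weeks, and to 179.0 and 144.8 at 12 weeks. The male 2-week sum was then above both adult sums and far below the female one.

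Contractile protein genes of fast fibres were among those farthest apart. Myh2, a fast myosin heavy chain, had 30.3 in the male and 3059 in the female library, a ratio of 101 (72.2 to 146). Its neighbour Myh4 had 10.7 and 560, and Myh1 had 124 and 3435, but these myosin genes are close copies on chromosome 11, so reads may have been shared between them. Acta1, skeletal actin, had 48.9 and 2333. Tnnt3, a fast troponin, had 18.7 and 927. Atp2a1, the calcium pump of the fibre's reticulum, had 24.02 and 1048, and Pvalb, a calcium buffer, had 0.89 (1 read) and 144.7. The male values of these genes are low but above 0, at 55 reads for Acta1 and 27 for Atp2a1. The members least apart were Pygm, muscle glycogen phosphorylase, with 2203 and 2534, and the enolase gene Eno3 with 456 and 573. Pygm had 1907 and 1857 at 12 weeks, close to its 2-week values.

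Genes shared by all striated fibres went with them. Of 18 listed genes 17 were compared, 15 of these passed 2-fold on the female side, and the median was -2.62. Ttn, the giant sarcomere spring titin, had 339 in the male and 23141 in the female library, a ratio of 68.3 (61.7 to 75.7). Across the ages Ttn stood at 69955 at E18.5, at 112645 and 175033 at P1, and at 122 and 137 at 12 weeks. Neb, the thin filament ruler nebulin, had 270 and 3469. Myom2, an M-band protein, had 0.89 (1 read) and 219. Fbxo32, a ubiquitin ligase adaptor also active outside muscle, was level at 257 and 274.

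Slow fibre genes showed the same direction at lower levels. Of 8 genes 7 passed 2-fold on the female side, with a median of -2.53. Myh7, the slow myosin, had 3.56 in the male and 188 in the female library, and Myoz2, a slow Z-disc protein, had 1.78 (2 reads) and 90.9. Of 5 developmental sarcomere genes 3 passed 2-fold on the female side, among them Myh3, the embryonic myosin, with 8.01 and 80.3. Klhl31 (1.78 and 175) and Trdn (2.67 and 178), a muscle Kelch protein and the reticulum protein triadin, came in among the 15 lowest genes without being on a list. The regulators of the Myod1 family, which set muscle identity, had few reads in both pools. Myod1 had 0 and 7 reads, Myf6 0 and 5, and Myog 0 and 2. All 5 compared genes of the list of myogenic factors were higher in the female, 3 at least 2-fold, with a median of -1.47. Of the 5, 0 differed beyond counting error. Smooth muscle genes were level, with a median of 0.08 over 8 genes.

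Neutrophil genes came next. These cells fill their granules in stages in the marrow, so the lists follow the granules. Of 10 genes of secondary and tertiary granules, made late in the marrow, 9 passed 2-fold on the female side and the median was -4.33, or -2.97 with a pseudocount of 10. Ngp, a granule protein of the cathelin family, had 1.78 (2 reads) in the male and 347 in the female library, a ratio of 195 (53.6 to 1610). Ltf, lactoferrin, had 16.9 and 379, a ratio of 22.4 (14.2 to 37.6). Camp, the cathelicidin precursor, had 0 and 122, which stand for 0 and 138 reads. Chil3, a chitinase-like protein, had 1.78 (2 reads) and 249.

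Primary granule genes, which are active in marrow precursors, were low in both pools. Of 5 listed genes 4 were compared, all 4 at least 2-fold higher in the female. Mpo, myeloperoxidase, had 0 and 35 reads, Elane, neutrophil elastase, had 2 and 15, and Ctsg, cathepsin G, had 0 and 8. The summed level of that list was 2.67 in the male and 55.6 in the female library. Of 15 genes of mature neutrophils 11 were compared and 10 of these passed 2-fold on the female side, with a median of -3.67, or -1.56 with a pseudocount of 10. S100a8 and S100a9, the subunits of calprotectin, had 4.45 and 6.23 in the male and 562 and 596 in the female library. S100a8 had 745 at E18.5, 988 and 492 in male and female at P1, and 5.59 and 6.79 at 12 weeks. The male 2-week value was near the adult values, and the female value lay between the P1 values. Cxcr2, the chemokine receptor for marrow exit, had 0 and 29 reads. Il1b, a cytokine that other myeloid cells also make, was close at 14.2 and 18.53.

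Genes of other white cells were closer together. Of 11 macrophage genes 1 was at least 2-fold apart and the median was -0.10. Csf1r, the growth factor receptor of macrophages, had 590 in the male and 606 in the female library, and Mrc1, the mannose receptor, had 933 and 999. The exception was Lyz2, lysozyme, a gene that neutrophils share, with 851 and 1876, a ratio of 2.20 (2.04 to 2.38). Of 8 compared B cell genes 0 were 2-fold apart, and Cd79b, a receptor subunit, had 33 and 41 reads. Of 4 compared T cell genes 0 were 2-fold apart. The mast cell genes Cpa3 (145 and 148) and Cma1 (147 and 151) were level, while 2 others differed beyond counting error in opposite directions. Tpsb2, a mast cell tryptase, had 137 and 87.3, and Hdc, which makes histamine, had 197.5 and 318.5. Prg2, an eosinophil granule protein, had 2 and 11 reads.

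Red cell genes were higher in the female pool in a graded way. Of 25 listed genes 23 were compared, all 23 were higher in the female library, 22 beyond counting error, and 18 were at least 2-fold higher, with a median of -2.05. The globins sat towards the mild end. Hbb-bs, an adult beta globin, had 6338 in the male and 16276 in the female library, a ratio of 2.57 (2.5 to 2.64), and Hba-a1, an alpha globin, had 1108 and 3002. The alpha pair and the beta pair are near-identical copies, so the split within each pair is uncertain. The embryonic globin Hbb-y had no read in either library.

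Several genes of the red cell membrane and of erythroblasts were much farther apart, but not all. Slc4a1, the anion exchanger of the membrane, had 161 in the male and 2282 in the female library, a ratio of 14.2 (12.2 to 16.6). Epb42, a membrane skeleton protein, had 24.02 and 358. The interval of the Slc4a1 ratio does not meet that of Hbb-bs. The blood group genes Kel (6.23 and 109) and Rhd (21.4 and 168), whose promoters are printed above, and Rhag (10.7 and 157) lay in the same range. Klf1, the erythroid transcription factor, had 14.2 and 112. Nearer the globins were Tal1, which also acts in endothelium, with 110 and 295, and the unlisted membrane skeleton gene Ank1. Ank1, looked up after its values were seen, had 161 and 478, a ratio of 2.97 (2.51 to 3.53). Genes used by most cells were near level, such as Tfrc, the transferrin receptor, with 3738 and 4170, and Fech, the last enzyme of heme synthesis, with 1904 and 2460.

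The ages place the red cell genes beside the others. Slc4a1 stood at 5217 at E18.5, at 4340 and 4257 in male and female at P1, and at 50.3 and 11.3 at 12 weeks. Its female 2-week value lay below the newborn values but far above the adult ones, and its male value was nearer to the adult ones. At 12 weeks Hbb-bs and Hba-a1 were higher in the male pool instead, with 9907 and 3761 for Hbb-bs. The difference between the ages was not tested.

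Liver and serum protein genes differed by a uniform step. All 19 listed genes were higher in the female library beyond counting error, 18 of them at least 2-fold, and the differences ran only from -1.95 to -0.88 around a median of -1.44. Alb, serum albumin, had 8297 in the male and 21233 in the female library, a ratio of 2.56 (2.5 to 2.62). Ahsg, a fetuin of fetal serum, had 3257 and 8811, a ratio of 2.71 (2.60 to 2.81). Ttr, which carries thyroid hormone, had 268 and 956. Hp, haptoglobin, was the member that did not reach 2-fold, with 388 and 713.

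Steps in that range were seen in clotting, lipid and metabolic genes of the liver. Fgb, a fibrinogen chain, had 311 and 761, and Apob, the scaffold of lipoproteins, had 1542 and 3785. Cps1, the entry enzyme of the urea cycle, had 733 and 1547, and Cyp3a11, a drug-metabolizing enzyme, had 147 and 404. Genes looked up after their values were seen gave like ratios, among them 2.5 (2.13 to 2.93) for kininogen Kng1. Serpina1a and Serpina1b are close copies and their split is uncertain. The summed level of the list was 20012 in the male and 49879 in the female library at 2 weeks, against 420862 at E18.5, 535902 and 372940 at P1, and 9751 and 7123 at 12 weeks. In the male 2-week pool the sum was thus above both adult sums, and Alb, with 248 and 157 at 12 weeks, was far above its adult values. Most of the adult sums came from Trf, with 7610 and 5790 at 12 weeks, against 4030 in the male 2-week pool.

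The median difference varied between the 4 groups, and members spread widely in all but the liver list. The median was -4.62 for fast muscle genes (members from -6.61 to -0.20) and -4.33 for late neutrophil granule genes (-6.97 to -0.80). It was -2.05 for erythroid genes (-4.18 to -0.16) and -1.44 for liver genes (-1.95 to -0.88). By summed level the order was another, with female over male ratios of 5.87, 7.5, 2.24 and 2.49. The share of reads taken by the fast muscle list was 0.0173% in the male and 0.0975% in the female library, by the shared sarcomere list 0.0108% and 0.158%, by the erythroid list 0.0920% and 0.198%, and by the liver list 0.107% and 0.255%. Their part in the differences of other genes was not tested. Leaving out the members of the muscle, blood cell, liver, fat, kidney and pancreas lists left 551 genes at least 2-fold apart. Of these, 77 were higher in the male and 474 in the female library. All gene lists together held only 113 of the 583 genes higher in the female (19.4%). Unlisted muscle genes such as Klhl31 and Trdn remain in the count, so it does not give the part that lies outside these tissues.

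**Figure D4:**
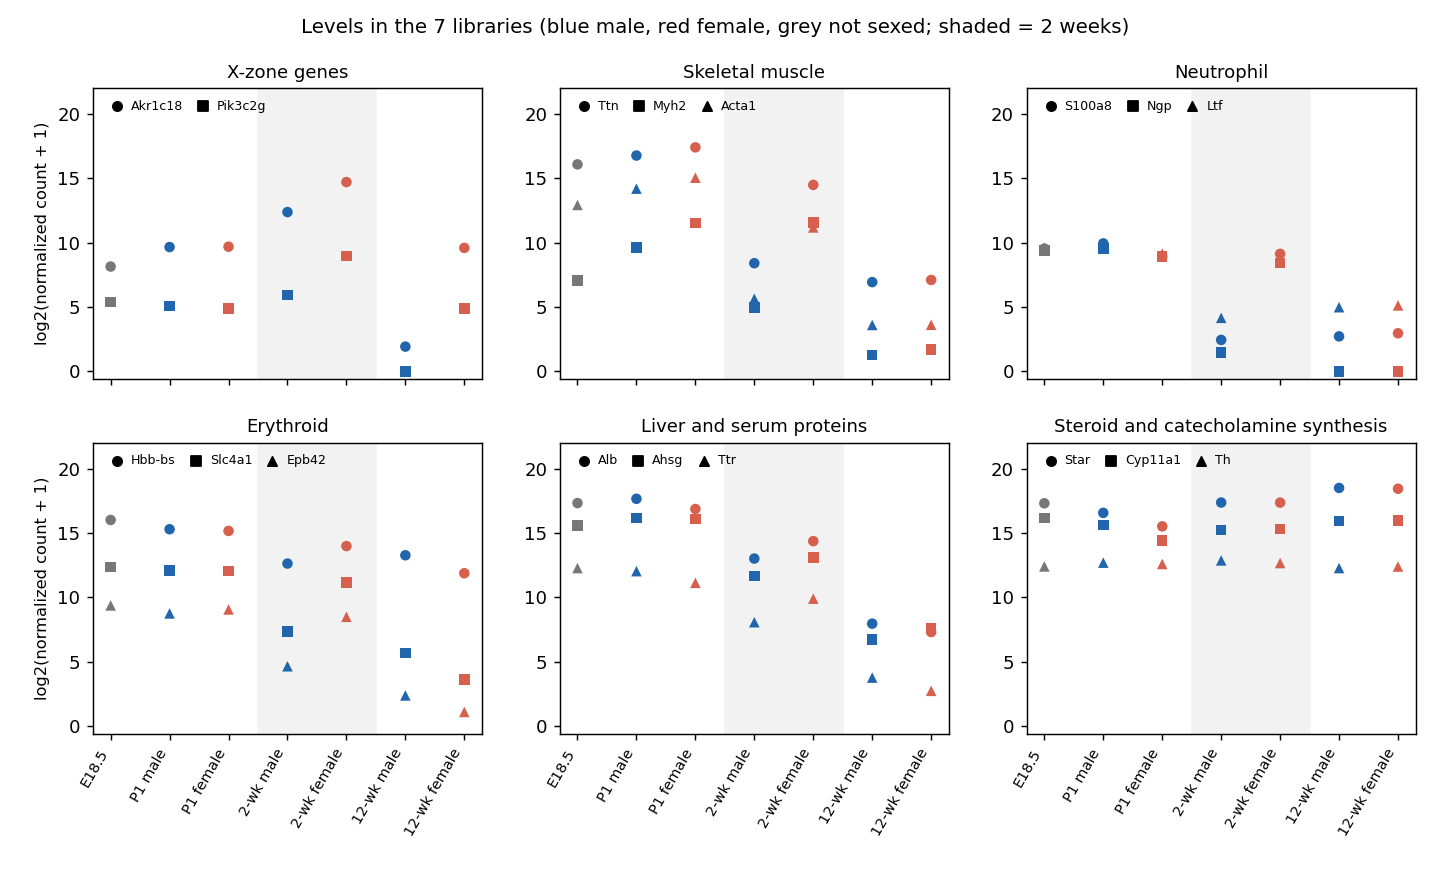
Log2(normalized count + 1) of 17 genes in the 7 libraries, in 6 panels, with 1 point per gene and library, blue for male, red for female and grey for the E18.5 pool, and the 2-week libraries shaded. Muscle and neutrophil genes are lower in the 2-week male and 12-week libraries than in the P1 and 2-week female libraries, while Star, Cyp11a1 and Th are level across the 2-week pair.

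Fat RNA was present in both pools at like levels. Ucp1, the uncoupling protein that defines brown fat, had 19373 in the male and 21706 in the female library, and Cidea, a lipid droplet protein of brown fat, had 3753 and 4187. All 9 brown fat genes were higher in the female, 5 beyond counting error (13% of all genes compared) and 0 by 2-fold, with a median of -0.16. Adipoq, the fat hormone adiponectin, had 1929 and 2408, and the 10 general fat genes had a median of -0.14. At P1 Ucp1 had 3.27 and 24.3, far below both 2-week pools.

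Kidney and pancreas genes were low, and none of the 12 compared in each list differed beyond counting error. The kidney list summed to 92.5 in the male and 104.1 in the female library, most of it Lrp2, an endocytic receptor, with 56.9 and 53.8. The kidney-defining genes Umod and Nphs1 had no read in either library. Of the pancreas list Ctrb1, Cela2a, Try5 and Amy2a5 had no read in either, and its sum of 650.3 and 699.6 came from Cela1 and Cpb1, which were level. Of 12 gonad genes 5 were compared and 0 were 2-fold apart. Foxl2 and Dmrt1, the ovary and testis regulators, had no read in either library.

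Genes that report the state of the tissue at collection were also close. Cell cycle genes had a median of -0.06 over 16, heat shock genes -0.003 over 7 and interferon response genes 0.01 over 12, and the first and second of these change sign when scaled to equal totals. Of 15 immediate early genes 0 were 2-fold apart, with a median of -0.10. Nr4a1, a nuclear receptor induced by ACTH, was higher in the male library with 9913 and 6960, while Fos had 491 and 432 and Egr1 had 847 and 990. Of 15 clock genes only Ciart, a clock repressor, passed 2-fold, on 6 and 17 reads, which was not beyond counting error. Per1 (1634 and 1692) and Arntl (846 and 899), which peak at opposite times of day, were level.

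Transcripts of the mitochondrial genome were higher in the female pool. All 9 genes in the table were higher there beyond counting error (13% of all genes compared) and 0 reached 2-fold, with a median of -0.59. ND5, a subunit of complex I, had 71732 in the male and 111700 in the female library, and COX1, a subunit of cytochrome oxidase, had 670588 and 740484. Together they took 5.47% of reads in the male and 6.45% in the female library. Among other non-coding and structural RNAs, Rn7s2, a copy of the signal recognition particle RNA, had 13658 and 161019, a ratio of 11.8 (11.6 to 12). Its near-identical copy Rn7s1 had 42967 and 56761, so the split between the copies is uncertain. Rn7sk, the RNA that restrains elongation factor P-TEFb, had 444958 and 475531, and the nuclear RNA Malat1 had 125664 and 102492.

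The levels of the 583 genes higher in the female pool were followed across the ages. The genes were chosen on the 2-week values and on a mean over all 7 libraries, and both choices bear on these counts, so they are given as a description only. In 435 of them (74.6%) both P1 libraries were above the 2-week female library, against 40.4% of all genes compared. In 473 (81.1%) both 12-week libraries were below it, against 43.1% of all genes compared. The female 2-week library was the highest of the 7 in 45 (7.72%), no larger a share than the 8.63% of all genes compared. Akr1c18 and Pik3c2g were among the 45. In 48 of the 583 the male library had no read.

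Of the 583 genes higher in the female pool at 2 weeks, 88 also passed 2-fold on the female side at 12 weeks (15.1% of 583 and 14.1% of 622), and 127 passed it on the male side at 12 weeks (21.8% and 17% of 747). With P1 the shared number was 87 in the same direction (14.9% of 583 and 18.3% of 476) and 70 in the opposite one. The pairs at the 3 ages share no library. Over all genes compared, too, more passed 2-fold on the male side at 12 weeks (4.73%) than on the female side (3.94%).

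Of the 88 genes, 24 had at least 100 normalized counts at 2 weeks and 12 of these also had at least 10 reads in the 12-week female library. These 12 were Akr1c18, Pik3c2g, Chil3, Neb, Fetub, Acpp, Hrc, F10, Spp1, 1700030C10Rik, Apof and Cst8. Acpp, an acid phosphatase gene, had 125 in the male and 487 in the female library at 2 weeks, and 23.8 and 153 at 12 weeks. Cst8, a cystatin-like protease inhibitor gene, had 595 and 1230, then 83.9 and 299. 1700030C10Rik had 77.4 and 207, then 15.4 and 66.8. For Akr1c18 the log2 difference was -2.33 at 2 weeks and -7.67 at 12 weeks. Pik3c2g had no read in the 12-week male library, so its fold at that age cannot be set beside that at 2 weeks.

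**Figure D5:**
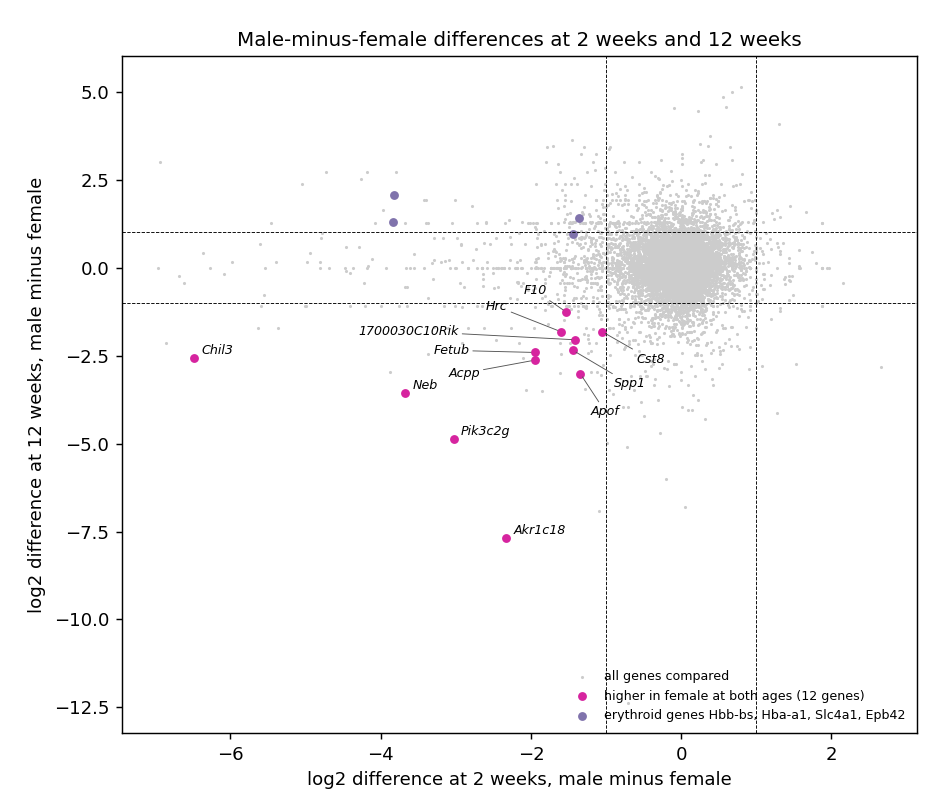
Log2 difference (male minus female) at 12 weeks against that at 2 weeks for the 15790 genes compared, with dashed lines at 2-fold, the 12 named genes higher in the female pool at both ages in pink and 4 red cell genes in purple. Akr1c18 and Pik3c2g lie lowest on the 12-week axis among the 12 genes, and the red cell genes lie above 0 on the 12-week axis.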

How the data were processed

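Total RNA of pooled adrenal glands was extracted with guanidinium thiocyanate and made into Illumina libraries, per the labels' protocols. The submitters' processing notes list CASAVA 1.8.2, HISAT2 2.1.0, HTSeq 0.9.1, DESeq2 2.11.40.6 and the build mm10, with no role or order. The strand setting of the counting is not given in the sources used here, so antisense and overlapping genes cannot be told apart. The authors deposited 1 table of normalized counts, a signal in which each library's read counts are divided by a size factor. Whole reads were recovered from the steps between low values: 100.0% of values above 0 lay within 0.001 reads of a whole number.

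Differences are log2(value + 1), male minus female, a scale that understates the change of low genes. Chromosomes came from RefSeq (GRCm38.p6) by symbol for 32495 symbols or synonym for 569, and from GENCODE for 642, leaving 2270 without one. Counting error was tested with an exact two-sided binomial test on the reads, Benjamini-Hochberg adjusted over the genes at 0.05. It compares these libraries, not the sexes. On simulated data with 16720 genes it recovered 200 of 200 genes changed 2-fold, with 13 false calls, and 171 unchanged genes passed 2-fold by counting alone. These genes include the 569 X- or Y-linked and 361 unmatched ones not compared here, and the 200 were drawn from genes with a mean of at least 100, so recovery at low levels was not tested. A floor of 3 reads per library marks values too low to compare. Genes named are members of the lists, the 15 highest and 15 lowest differences among genes with at least 100 normalized counts in a 2-week library, and genes at least 2-fold apart with at least 1000. Any other gene was chosen after its values were seen, and some genes are not reported here. The comparison, its members and the lists were chosen with earlier results of these data known. Other pseudocounts, scalings, filters and fold limits were tried. Python 3.11.15, numpy 2.4.6, scipy 1.17.1, pandas 2.3.3, matplotlib 3.10.9, R 4.3.3 and edgeR 4.0.16 (TMM factors) were used.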

Additional observations from a re-analysis of the deposited data

Results flagged for a closer look

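Several groups stood on opposite sides at different ages, and with 1 pool per sex and age the difference between ages was not tested. Genes of secondary and tertiary neutrophil granules had a median of -4.33 at 2 weeks (higher in the female pool) and 0.59 at P1, and genes of mature neutrophils had -3.67 and 1.01. Among their members, S100a8 had -6.69 at 2 weeks and 1.0 at P1, Chil3 had -6.49 and 1.15, and S100a9 had -6.37 and 1.10. The P1 female library held Y-linked RNA, so its side of the P1 difference is uncertain. Liver and serum protein genes had -1.44 at 2 weeks and 0.84 at 12 weeks, and Hbb-bs had -1.36 and 1.40.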

How the results depend on the processing

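No paired analysis was possible because each sex and age has 1 pool and the labels give no replicate numbers. For the same reason no library could be left out. Of 3612 values of 516 genes, 93 moved, and of 369 values of 41 lists, 10 moved. None of the genes or list medians at least 2-fold from 0 changed sign. Medians nearer to 0 changed sign for T cells, mast cells and eosinophils, the cell cycle, glucocorticoid-induced genes, heat shock and steroidogenesis when scaled to equal totals, and for kidney without a pseudocount. The counts of genes at least 2-fold apart (660, 77 higher in the male and 583 in the female library) depended on how low genes were treated. With a pseudocount of 0.1, 121 were higher in the male. With a pseudocount of 5 the total was 427, with 20 higher in the male, and with 10 it was 299, with 3 and 296. A mean of at least 50 gave 306 (7 and 299), no filter gave 2045 (671 and 1374), and a mean of at least 10 over the 2 libraries left 46 higher in the male. A fold limit of 1.5 gave 1554 (403 and 1151) and one of 4 gave 171 (2 and 169). Requiring a difference beyond counting error left 420, with 15 higher in the male. Of the alternatives chosen after seeing the data, protein-coding genes alone left 47 higher in the male, and at least 100 normalized counts in a 2-week library left 145 (0 and 145). Scaled to equal totals, 3018 genes were higher in the male beyond counting error, the median over all genes shifted by 0.063, and the list medians became 0.06 for steroidogenesis and -0.64 for the X-zone. With a pseudocount of 10 the medians were -3.80 for fast muscle and -2.97 for secondary and tertiary neutrophil granules. The mature neutrophil median (-3.67) was -4.88 with a pseudocount of 0.1, -2.20 with 5 and -1.56 with 10. At a mean of at least 50, overlaps in both directions together were 46 (12 weeks, same side; 98 before), 74 (opposite; 136), 48 (P1, same; 102) and 25 (opposite; 78). The cause was not tested, apart from the fewer or additional low genes in the filters.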

Other observations

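Genes outside the lists, chosen after their values were seen, held growth-related transcripts of the fetus. H19, an imprinted non-coding RNA, had 1946 in the male and 4388 in the female library at 2 weeks, a ratio of 2.25 (2.14 to 2.37). It stood at 51600 at E18.5, at 73523 and 97535 in male and female at P1, and at 43.3 and 83.7 at 12 weeks. Igf2, the neighbouring imprinted growth factor gene, had 998 and 1727, a ratio of 1.73 (1.61 to 1.86). Both genes were thus far below their newborn levels in both pools and higher in the female one. Emb, which encodes the cell surface protein embigin, had 1256 and 2884, with 3108 and 2730 at P1. Its female 2-week value lay between the P1 values.

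Aldh1a1, a retinaldehyde dehydrogenase gene, had 249 in the male and 538 in the female library at 2 weeks, and 2280 and 952 at 12 weeks, on the opposite side. The difference between the ages was not tested.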
